A study of Schizosaccharomyces pombe with 4 samples.

Results

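The subtelomeric genes of fission yeast chromosomes I and II are described here: the annotated coding genes and pseudogenes that lie wholly within 50 kb of an end of these chromosomes in the deposited coordinates. They were taken by position and identifier alone (SPAC, SPAP, SPBC or SPBP, without the non-coding SPNCRNA features), so no measured value chose them. The rule gave 69 of the 12684 features, with 22 at the left end of chromosome I, 16 at its right end, 16 at the left end of chromosome II and 15 at its right end. RefSeq types 60 of them as protein coding and 9 as pseudogenes. The distance of a gene is that between the chromosome end and the nearest base of the gene.

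RNA was sequenced from vegetative haploid *h-* *Schizosaccharomyces pombe* cells labelled wild type, all of which carried *leu1-32* and *pat1-L95G::kanR*, an allele of the Pat1 kinase that an inhibitor can block to start meiosis. The cells had grown for 2 days at 30 °C in the minimal medium EMM. Total RNA was depleted of ribosomal RNA (total RNA, 2 biological replicates), and poly(A)+ RNA was enriched on oligo(dT) beads (poly(A)+ RNA, 2 biological replicates). The fractions also differed in library kit, in read length and in instrument, and these effects cannot be told apart.

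Subtelomeres are the stretches next to the telomere repeats. In fission yeast their outermost part is packed into heterochromatin, in which the methyltransferase Clr4 marks histone H3 and Swi6 binds the mark, and a further repressed stretch lies inward of it. Subtelomeres are also where gene families are found in copies on several chromosome ends, among them *tlh1* and *tlh2*, which encode RecQ-type DNA helicases. Reads from copies that are alike cannot be placed on one of them, so the sequence of these genes bears on what a count can show.

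How alike the genes are is seen from their first 51 bases, read from assembly ASM294v3 of RefSeq, in which all 69 genes have the deposited start and end. In 39 genes this start was shared with another of the 69, in 14 groups of up to 6, and 22 genes had a start found once in the genome. In the sequences printed here, written 5′ to 3′, capitals mark the ATG with which the annotated gene begins. The first set shows the helicase genes *tlh1* (chrI:5612-5662, minus strand) and *tlh2* (chrII:4526885-4526935, plus strand), which begin alike at ends of different chromosomes.
tlh1: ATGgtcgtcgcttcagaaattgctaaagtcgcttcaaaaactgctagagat
tlh2: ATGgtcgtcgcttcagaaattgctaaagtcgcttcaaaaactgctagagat

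The second set shows the genes with the most counts in poly(A)+ RNA, SPAC212.04c and SPAC212.12, each beside a gene that shares its start. SPAC212.04c (chrI:21587-21637, plus strand) heads a group of 6 uncharacterized genes with the same start, of which SPBCPT2R1.04c (chrII:4514551-4514601, minus strand) is another. SPAC212.12 (chrI:15855-15905, plus strand), annotated as a GPI-anchored protein, is identical over all its 372 bases to SPAC750.07c (chrI:5575514-5575564, minus strand) at the other end of the chromosome.
SPAC212.04c: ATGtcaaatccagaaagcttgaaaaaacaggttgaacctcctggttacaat
SPBCPT2R1.04c: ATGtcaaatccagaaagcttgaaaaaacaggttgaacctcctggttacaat
SPAC212.12: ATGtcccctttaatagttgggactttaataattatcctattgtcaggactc
SPAC750.07c: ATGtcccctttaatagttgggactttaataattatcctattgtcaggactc

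The third set shows copies that have begun to differ. The methyltransferase genes SPAC977.03 (chrI:33835-33885, plus strand) and SPBC1348.04 (chrII:12176-12226, plus strand) share their start, and SPAC750.03c (chrI:5562995-5563045, minus strand) differs from that of SPAC977.03 by G10T, with positions counted from 1 at the first base.
SPAC977.03: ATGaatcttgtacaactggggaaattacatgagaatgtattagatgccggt
SPBC1348.04: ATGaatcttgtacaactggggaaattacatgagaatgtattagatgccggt
SPAC750.03c: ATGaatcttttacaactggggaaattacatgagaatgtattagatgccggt

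The last set shows genes whose start occurs once, since the levels that can be read rest on genes of this kind. They are SPBC1348.12 (chrII:35112-35162, plus strand), a DNA-binding transcription factor, *ght7* (chrII:40093-40143, minus strand), a hexose transporter, and *fah1* (chrII:47428-47478, plus strand), an acetamidase.
SPBC1348.12: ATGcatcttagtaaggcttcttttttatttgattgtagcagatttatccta
ght7: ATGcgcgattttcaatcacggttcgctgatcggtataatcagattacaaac
fah1: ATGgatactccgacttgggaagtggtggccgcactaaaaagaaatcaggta

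To carry this over whole genes, each gene was cut into all its 51-base words, as long as the longer read of the total RNA libraries. The share of words found once in the assembly was then taken. Reads of the poly(A)+ libraries were longer, and no share was computed for their length. The median share was 7.64% in the subtelomeric genes and 100% in the other 4150 coding genes of chromosomes I and II. In 42 subtelomeric genes the share was under 10%, and in 24 it was 0. Only 13 subtelomeric genes (18.8%) reached 90%, against 4088 (98.5%) of the others. These 13 are called unique genes from here on, and every level is given for them as well. They are SPAC212.07c, SPAC186.02c, SPAC186.04c, *gdt1*, SPAC186.06, SPAC186.07c, SPAC186.08c and *pdc102* on chromosome I, and SPBC1348.11, SPBC1348.12, *ght7*, SPBPB8B6.02c and *fah1* on chromosome II, with none at the right end of chromosome II. Words were shared with another of the 69 genes by 54, and for 37 the gene sharing most words lay on the other chromosome. The subtelomeric genes were shorter than the others, with a median of 966 against 1769 bases, and alike in base composition, with a median of 36.5% against 36.7% G and C. An overlap with a feature on the opposite strand was annotated for 37 of them (53.6%), and for 90.7% of the others.

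The libraries held 25530272 to 30650533 counts. Genes of *h-* cells were abundant, with 39972 and 40312 counts of the mating pheromone gene *mfm1* in total RNA versus 28163 and 28992 in poly(A)+ RNA. Of the listed genes of the opposite mating type, the pheromone gene *map2* had 6 to 13 counts in each library. The other listed gene of that type, *map3*, was not low, with 254 and 259 counts in total RNA versus 765 and 1284 in poly(A)+ RNA. Whether the reads of a pair, both strands or reads with several places in the genome were counted is not given in the sources used here.

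The subtelomeric genes were among the least represented coding genes in both fractions. Together they had 296 and 354 counts in total RNA versus 309 and 525 in poly(A)+ RNA. In CPM, the share of a library's counts, this was 9.66 (95% Wilson interval 8.62 to 10.8) and 12.2 (11.0 to 13.5) for total RNA, compared with 12.1 (10.8 to 13.5) and 17.3 (15.9 to 18.8) for poly(A)+ RNA. The intervals cover counting error only. The 69 genes hold 0.930% of the bases of the coding genes of these chromosomes. Per kb, the other coding genes had 687 and 550 times as many counts in total RNA, compared with 431 and 305 times as many in poly(A)+ RNA. For the 13 unique genes alone, the same ratios were 493 and 422 in total RNA, compared with 406 and 410 in poly(A)+ RNA. Thus the low level was also found where repeated sequence does not enter.

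Gene by gene, 24 and 19 of the 69 lacked counts in total RNA, and 38 and 35 had none in poly(A)+ RNA. A count of 0 allows up to 3 counts. The median gene had 1 and 2 counts in total RNA and 0 in each poly(A)+ library. No gene had more than 64 counts in total RNA or more than 146 in poly(A)+ RNA. In all 4 libraries, 9 genes had no counts, 33 had at most 3 and 55 had fewer than 10. Counts of at least 10 in every library were found in 4 genes. Ranked by counts per nucleotide among the coding genes of their chromosome, 68 of the 69 were under the 5th percentile in every library, and so were 114 (2.75%) of the other coding genes. The exception was SPAC212.12, which was under the 50th. All 13 unique genes were under the 5th percentile in every library, the highest of them at 3.31.

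The level of each gene was then expressed as log2 of its counts per nucleotide, after adding 0.5 counts, relative to the median of the other coding genes of its chromosome in the same library. On chromosome I the median subtelomeric gene stood at -8.43 and -8.02 in total RNA (mean -8.22 ± 0.29, SD, n = 2) and at -8.60 and -8.50 in poly(A)+ RNA (-8.55 ± 0.069, n = 2). On chromosome II it stood at -8.45 and -7.99 in total RNA (-8.22 ± 0.33, n = 2) and at -9.10 and -9.51 in poly(A)+ RNA (-9.30 ± 0.29, n = 2). In linear terms the means in total RNA were 299-fold and 298-fold below the median of the others. The median gene had 1 and 2 counts there, so these sizes depend in part on the 0.5 counts added. With 1 count added, the means in total RNA were -7.84 on chromosome I and -8.00 on chromosome II. With a median of 0 counts, the values in poly(A)+ RNA are set by the 0.5 counts added and by gene length, so their size is not a measured level. The unique genes stood at -7.21 ± 0.030 in total RNA and -7.58 ± 0.28 in poly(A)+ RNA on chromosome I (8 genes, n = 2), and at -7.87 ± 0.47 and -8.24 ± 1.02 on chromosome II (5 genes, n = 2). The offset thus exceeded the spread between replicates for all 69 genes in total RNA and for the unique genes in both fractions, on both chromosomes.

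**Figure D1:**
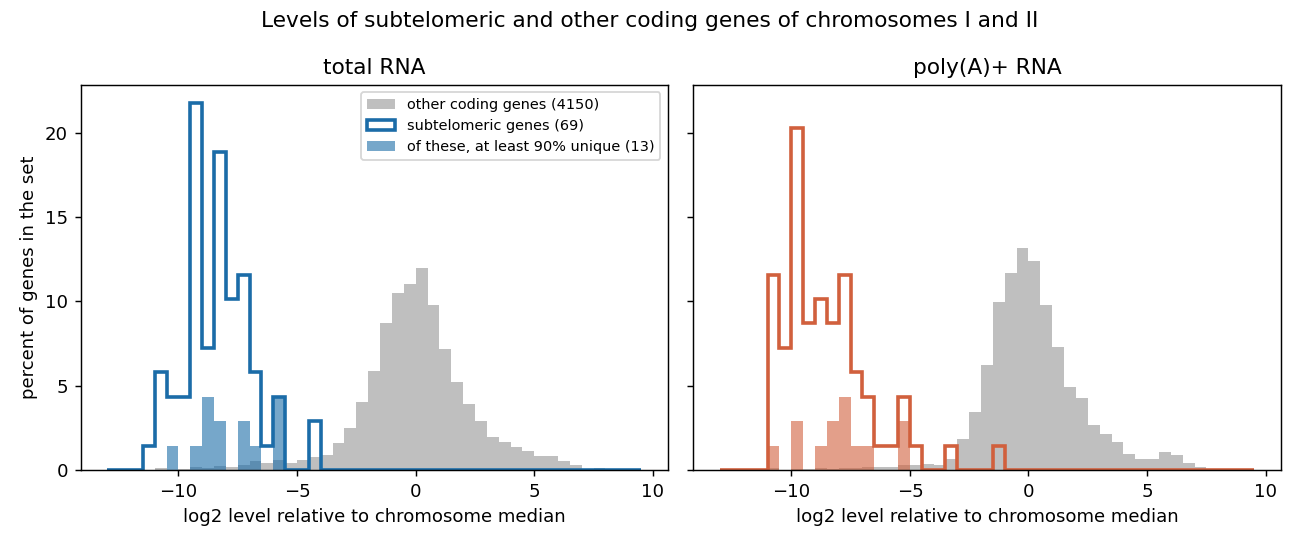
Histograms of the log2 level relative to the chromosome median (x axis, mean of 2 libraries) in total RNA (left) and poly(A)+ RNA (right), as percent of the genes in each set (y axis). Other coding genes are grey, the outline shows the 69 subtelomeric genes and the filled bars the 13 unique genes as a share of the 69. The subtelomeric genes lie to the left of most other genes, and in poly(A)+ RNA SPAC212.12 at -1.29 is the gene that reaches furthest into their range.

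The fractions were compared next. The median relative level in poly(A)+ RNA was lower than in total RNA by 0.33 on chromosome I and by 1.08 on chromosome II on the log2 scale, and the libraries of the fractions did not overlap on either. The exact two-sided permutation test gave p = 0.333 for each chromosome, the smallest value that 2 against 2 libraries allow. The size rests on the 0.5 counts added: with 1 count added the difference was -0.072 on chromosome I, where the libraries then overlapped (exact permutation p = 1.0), and -0.62 on chromosome II. The sign depended on which genes entered: with genes averaging at least 10 counts in both fractions the difference on chromosome I was 1.18 (4 genes), and with the limit at 100 kb it was 0.19 on chromosome I and 0.051 on chromosome II.

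By end, the median in total RNA was -9.04 ± 0.40 at the left and -7.70 ± 0.27 at the right end of chromosome I, and -8.39 ± 0.033 at the left and -8.17 ± 0.60 at the right end of chromosome II (SD, n = 2). In poly(A)+ RNA the corresponding values were -8.53 ± 0.19, -8.57 ± 0.093, -9.67 ± 0.59 and -9.06 ± 0.18. The ends therefore lay within 2 log2 units of each other in each fraction, while each was more than 7 units below its chromosome. In total RNA the libraries of the left and right ends of chromosome I did not overlap. Those of the 2 ends of chromosome II did. In replicate 1 the left median of chromosome I, -9.32, lay between SPAC212.03 at -9.29 and SPAC212.02 at -9.36, both without counts there. It was thus set by gene length and the counts added, so its size is not a measured level. The median unique share was 6.35% at the left end (1 unique gene) and 52.8% at the right end (7 unique genes). The part of repeated sequence in the difference between these ends was not tested.

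Along the distance to the end, with the 4 ends pooled, the median level in total RNA did not climb within the 50 kb. In both fractions the pooled median was higher beyond the limit than inside it, but the rise was not steady. Genes from 60 to 70 kb stood at -6.28 and -6.69 in the total RNA libraries (14 genes). The ends also differed, as described below. Genes from 0 to 25 kb had a median relative level of -8.14 in total RNA and -9.26 in poly(A)+ RNA (34 genes), and genes from 25 to 50 kb of -8.59 and -8.46 (37 genes, with *grt1* and *gal1*, which cross the limit). From 50 to 75 kb the medians were -2.79 and -2.20 (34 genes), from 75 to 100 kb -3.30 and -2.20 (32 genes), and from 100 to 150 kb -0.48 and -0.34 (69 genes). Restricted to genes of at least 90% unique sequence, the medians in total RNA were -8.15 from 25 to 50 kb (13 genes), -3.75 from 50 to 75 kb (28 genes), -1.82 from 75 to 100 kb (26 genes) and -0.30 from 100 to 150 kb (67 genes). Only 2 such genes lay within 25 kb, with a median of -8.45. Across the 69 genes, which are not independent replicates, Spearman's rho between distance and level was -0.064 in total RNA and 0.15 in poly(A)+ RNA, and rho between the unique share and level was 0.30 in both. By end, rho between distance and level ranged from -0.28 to 0.11 in total RNA and from -0.23 to 0.41 in poly(A)+ RNA, with the highest value in each fraction at the right end of chromosome I. The unique share itself rose with distance at the right end of chromosome I (rho 0.80, 16 genes) and at the left end of chromosome II (rho 0.74, 16 genes).

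**Figure D2:**
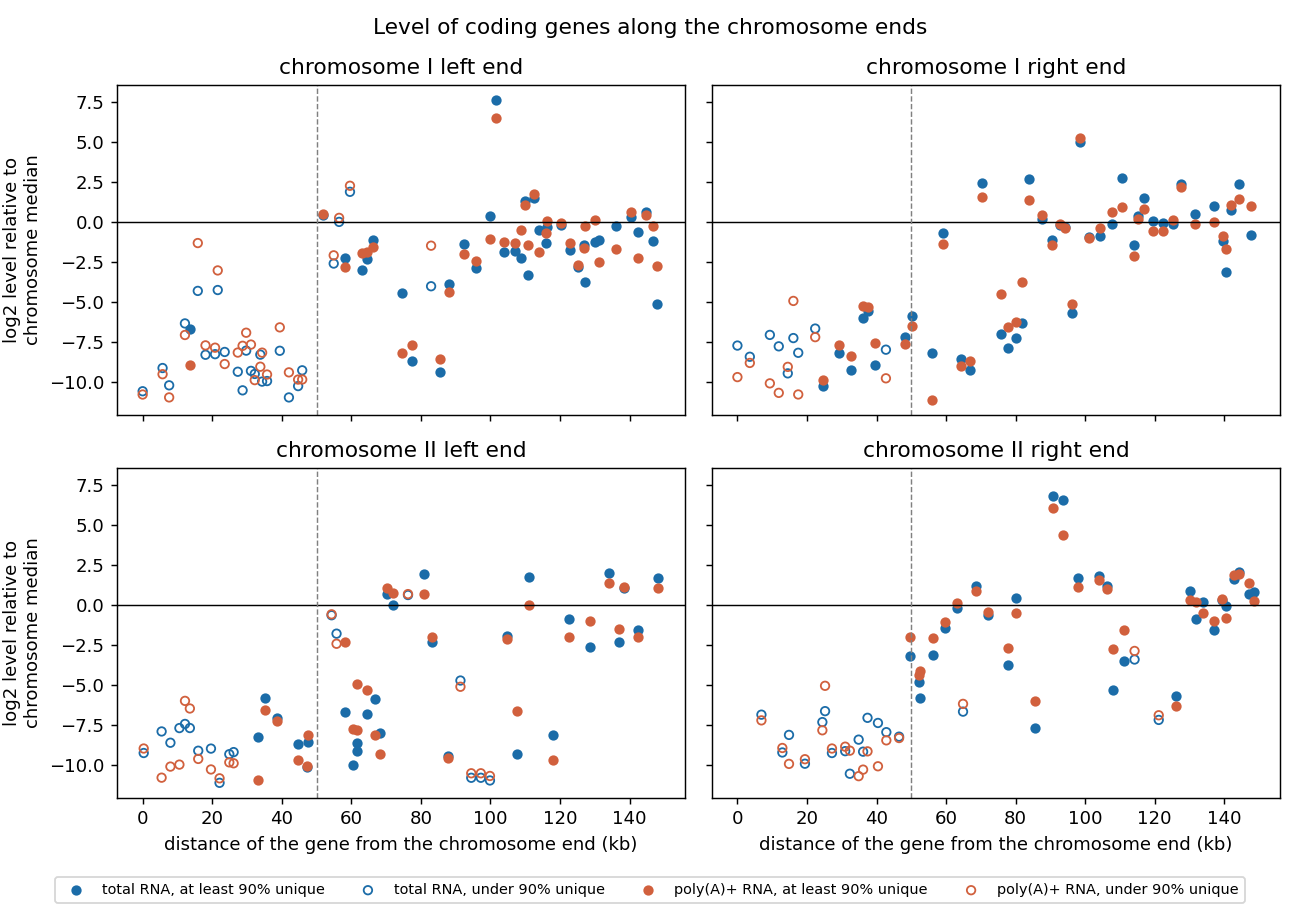
Log2 level relative to the chromosome median (y axis, mean of 2 libraries) of each coding gene against its distance from the chromosome end in kb (x axis), for the 4 ends. Blue is total RNA and orange poly(A)+ RNA, filled points are genes of at least 90% unique sequence and open points the others, the solid line is the chromosome median and the dashed line 50 kb. Up to the dashed line most genes stand below -5 at all 4 ends. Beyond it the next genes stand near the median at the left end of chromosome I, where low genes return near 75 kb, while many stay low at the right end of chromosome I and the left end of chromosome II.

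The ends differed in how sharply the low stretch gave way. At the left end of chromosome I, the last gene inside the limit was *plb4*, a phospholipase gene, with 3 and 2 counts in total RNA and 1 in each poly(A)+ library. The first gene beyond it, 52.0 kb from the end, was *nhe1* (also *sod2*), the sodium/proton antiporter of the plasma membrane, with 1958 and 2043 counts in total RNA versus 1309 and 1919 in poly(A)+ RNA. It was the first gene from that end above the 50th percentile in every library. At the right end of chromosome II, SPBPB2B2.14c inside the limit had 1 and 2 counts in total RNA versus 4 and 0 in poly(A)+ RNA. Next to it *gal1*, the galactokinase gene, had 184 and 155 in total RNA versus 438 and 220 in poly(A)+ RNA. The genes *gal10* and *gal7* of the same galactose pathway follow at 52.3 and 56.1 kb, and their relative levels in total RNA were -4.79 and -3.10. By distance *tgd1*, a nucleotide-sugar dehydratase gene, lies between them at 52.5 kb and stood at -5.84. Both *gal10* and *tgd1* were under the 5th percentile in every library.

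At the remaining ends many genes beyond 50 kb were still low, though not all. At the right end of chromosome I, SPAC186.02c, a hydroxyacid dehydrogenase gene inside the limit, had 4 and 8 counts in total RNA versus 4 and 2 in poly(A)+ RNA, and *pfl9*, a surface glycoprotein gene outside it, had 22 and 13, and 5 and 12. The first gene not under the 5th percentile in every library was *yhb1*, the nitric oxide dioxygenase gene, at 59.2 kb, with 995 and 1007 counts in total RNA versus 383 and 574 in poly(A)+ RNA. At the left end of chromosome II, *fah1* inside the limit had 4 and 2 counts in total RNA versus 5 and 2 in poly(A)+ RNA, and *grt1*, a transcription factor gene that crosses the limit and overlaps *fah1* on the opposite strand, had 0 and 14, and 3 and 1. The next gene at that end, the L-asparaginase gene SPBPB8B6.05c at 54.3 kb, had 609 and 641 counts in total RNA versus 391 and 732 in poly(A)+ RNA and was the first there not under the 5th percentile in every library. The median relative level in total RNA from 50 to 75 kb was -7.01 at the right end of chromosome I (6 genes) and -6.69 at the left end of chromosome II (11 genes), against -2.24 at the left end of chromosome I (9 genes) and -2.27 at the right end of chromosome II (8 genes). In walking inward, the first gene above the 50th percentile in every library stood at 70.4 kb at the right end of chromosome I (*sul2*, a sulfate transporter), at 70.1 kb at the left end of chromosome II (*aes1*) and at 68.6 kb at the right end of chromosome II (SPBPB2B2.06c), so by this measure those 3 ends were alike and the left end of chromosome I, at 52.0 kb, stood apart.

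Among the 13 unique genes, 3 carried most of the counts. The gene *gdt1*, annotated as encoding a GDT1-like protein, had 21 and 27 counts in total RNA versus 32 and 14 in poly(A)+ RNA. The neighbouring isomerase gene SPAC186.06 had 18 and 8, and 8 and 28. The transcription factor gene SPBC1348.12 had 15 and 26, and 4 and 22. In each of these genes the values of the fractions overlapped, and the replicates of poly(A)+ RNA differed more than 2-fold. Relative to the chromosome median, their levels in total RNA were -5.55 ± 0.29, -5.97 ± 0.76 and -5.84 ± 0.58 (SD, n = 2).

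The other unique genes had no more than 10 counts in any library. The hexose transporter gene *ght7* had 10 and 8 counts in total RNA versus 10 and 4 in poly(A)+ RNA, and the urea transporter gene SPBPB8B6.02c had 2 and 6, and 5 and 0. Of the metabolic genes, SPAC186.08c (L-lactate dehydrogenase) had 6 and 1, and 2 and 4, the pyruvate decarboxylase gene *pdc102* had 0 and 2, and 2 and 0, and SPAC186.07c (hydroxyacid dehydrogenase) had 0 and 3, and 0 and 6. Each of these 5 genes overlapped between the fractions. The uncharacterized SPAC186.04c had 5 and 0 counts in total RNA versus 2 and 4 in poly(A)+ RNA. The pseudogenes SPAC212.07c (6 and 7, and 0 and 2) and SPBC1348.11 (2 and 6, and 0 and 0) had more counts in each total RNA library than in either poly(A)+ library, at counts too low for the test.

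**Figure D3:**
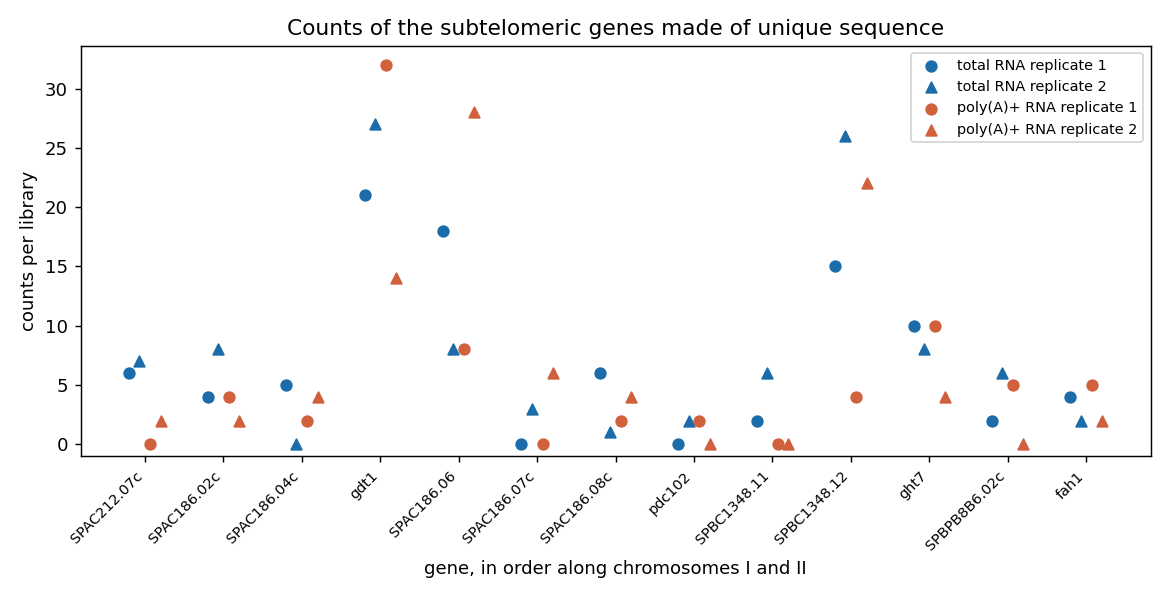
Counts per library (y axis) of the 13 unique subtelomeric genes in order along chromosomes I and II (x axis). Circles are replicate 1 and triangles replicate 2, blue is total RNA and orange poly(A)+ RNA. Counts above 10 occur for *gdt1*, SPAC186.06 and SPBC1348.12 only, and no gene exceeds 32.

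The helicase genes nearest the ends of the chromosome sequences gave unequal counts. At the left end of the chromosome I sequence, *tlh1* had 3 and 2 counts in total RNA versus 1 and 2 in poly(A)+ RNA over 5662 bases. At the right end of chromosome II, *tlh2* had 35 and 46, and 13 and 50, over 6015 bases. Of the words of *tlh1*, 99.1% occur in *tlh2*, and the share of words found once in the genome was 0.909% in *tlh1* and 6.77% in *tlh2*. The level of *tlh2* in total RNA was -6.86 ± 0.30 and that of *tlh1* -10.56 ± 0.31 (SD, n = 2), and the libraries did not overlap. The part that the unique stretches of *tlh2* have in this difference was not tested. The helicase-like gene SPAC212.06c had 3 and 1 counts in total RNA versus 1 and 4 in poly(A)+ RNA. The outermost genes of the other 2 ends were SPAC750.08c (NAD-dependent malic enzyme), with 1 and 4 counts in total RNA and none in poly(A)+ RNA, and SPBC1348.15, with none in any library. No word of either is found once in the genome. The features of *tlh1* and SPAC750.08c reach the first and last base of the chromosome I sequence, and whether they are complete was not determined.

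The most counts of all came from repeated genes at the left end of chromosome I. SPAC212.04c had 58 and 64 counts in total RNA versus 102 and 114 in poly(A)+ RNA, and 45.4% of its words are found once. Of the 5 other genes with its start, SPBCPT2R1.04c (8.86% unique) had 10 and 8 counts in total RNA versus 20 and 26 in poly(A)+ RNA. The remaining 4 had at most 6 counts in any library, and their unique share was 0 or, in SPAC750.06c, 8.34%. Thus both genes of this group with more than a few counts had more raw counts in each poly(A)+ library than in either total RNA library. After edgeR's scaling between libraries, SPAC212.04c overlapped between the fractions (2.44 and 2.86 CPM in total RNA, 3.25 and 2.75 in poly(A)+ RNA). SPBCPT2R1.04c did not overlap (0.42 and 0.36, and 0.64 and 0.63). SPAC750.06c (4 and 6, and 0 and 0) and SPBC1348.01 (4 and 4, and 0 and 0) had counts in total RNA alone.

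SPAC212.12 had 21 and 10 counts in total RNA versus 55 and 146 in poly(A)+ RNA, although none of its words is found once. Its identical copy SPAC750.07c had 0 and 1 in total RNA and none in poly(A)+ RNA. A word that begins 23 bases upstream of SPAC212.12 and runs into it is unique, whereas the unique word nearest to SPAC750.07c starts 1464 bases away. On the opposite strand SPAC212.12 is covered by the non-coding SPNCRNA.1701, which had 16 and 20 counts in total RNA versus 62 and 111 in poly(A)+ RNA. Both features thus had more counts in each poly(A)+ library than in either total RNA library. Poly(A)+ reads, being longer, can reach further into a flank. The part of the opposite strand, of read length and of reads reaching into the unique flank in the counts of SPAC212.12 was not tested.

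In all, 4 groups of 2 subtelomeric genes each were identical over their whole length. Besides the pair with SPAC212.12, the transporter genes SPAC750.02c (2 and 6 counts in total RNA, 0 and 0 in poly(A)+ RNA) and SPBPB2B2.16c (4 and 10, and 0 and 1) are identical over 1458 bases and lie on different chromosomes. The transporter gene SPBC1348.05, which shares their start, had 8 and 5 counts in total RNA versus 6 and 26 in poly(A)+ RNA. SPBC1348.15 and SPBCPT2R1.03 had no counts at all. The Vel1p domain genes SPBC1348.06c and SPBPB2B2.15 had at most 2 counts in a library. The members of a pair share their sequence, so the counts of either may come from both.

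In the other families counts were few. SPAC212.08c, a GPI-anchored protein gene that shares its start with SPAC212.12 and has 48.5% unique words, had 6 and 10 counts in total RNA versus 1 and 9 in poly(A)+ RNA, and the 177-base pseudogene SPBCPT2R1.05c had 1 count in 1 total RNA library. The transmembrane helix family *ftm1* to *ftm7* ranged from 0 to 6 counts in a library, with the most in *ftm1* (4 and 3 in total RNA, 6 and 6 in poly(A)+ RNA). The glycoprotein genes *pfl6* and SPBC1348.08c had counts only in 1 poly(A)+ library of *pfl6* (2 counts). The dehydrogenase genes *ayr2* and SPBC1348.09 had 1 count in 1 total RNA library together. Of the 3 methyltransferase genes shown above, SPBC1348.04 had 1 and 4 counts in total RNA versus 2 and 13 in poly(A)+ RNA, SPAC750.03c had 1 and 3, and 6 and 11, and SPAC977.03 had 0 and 2, and 0 and 0. SPAC750.03c, which differs from the others in its start, alone among these 3 had more counts in each poly(A)+ library than in either total RNA library, and the non-coding SPNCRNA.4502, which overlaps it on the opposite strand, had 20 and 16 counts in total RNA versus 22 and 56 in poly(A)+ RNA.

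Grouped by their RefSeq product, every class was low. The median relative level in total RNA was -8.52 in 40 genes whose product text matched none of the other classes, among them the 9 pseudogenes and *gdt1*. It was -8.21 in 16 enzyme genes, -7.69 in 5 transporter genes, -8.63 in 4 cell surface genes and -8.28 in 3 helicase genes. The single transcription factor gene, SPBC1348.12, was at -5.84. In poly(A)+ RNA the medians were -8.98, -8.69, -9.70, -8.21, -7.69 and -6.57 in the same order. The classes hold different numbers of unique genes (4 of the unmatched, 6 of the enzyme, 2 of the transporter and 1 of the transcription genes), so their order was not compared further.

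Repeated genes elsewhere were measured in the same way. The 11 coding features of Tf2 retrotransposons had 0 to 38 counts in a library, with a median relative level of -8.39 in total RNA and -9.44 in poly(A)+ RNA, beside -8.80 and -9.56 in the 42 subtelomeric genes of under 10% unique sequence. Of all other coding genes of chromosomes I and II, 23 had under 10% unique sequence, and these 11 Tf2 features are among them. Their median was -7.66 in total RNA, with up to 628 counts in a total RNA library and 1710 in a poly(A)+ library, both in *rpn502*. The 23 also hold *mat3-Mi* and *mat3-Mc* of the silenced MAT3 locus. They further hold the transporter genes SPBPB10D8.05c, SPBPB10D8.06c and SPBPB10D8.07c, without counts and within 100 kb of the left end of chromosome II. Low counts thus also occurred in repeated genes outside the subtelomeres, and for the repeated subtelomeric genes repetition and low RNA cannot be told apart. Genes of intermediate repetition near the ends differed widely. In the 14 subtelomeric genes with 10 to 90% unique sequence the median level was -8.17 in total RNA. The L-asparaginase gene SPAC977.12, 56.5 kb from the left end of chromosome I with 26.7% unique words, had 1011 and 988 counts in total RNA versus 675 and 1195 in poly(A)+ RNA, and the fluoride channel gene *fex1* beside it, with 25.9% unique words, had 166 and 197, and 147 and 258. SPBPB2B2.07c, 64.9 kb from the right end of chromosome II with 39.9% unique words, had 3 and 10, and 1 and 32.

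**Figure D4:**
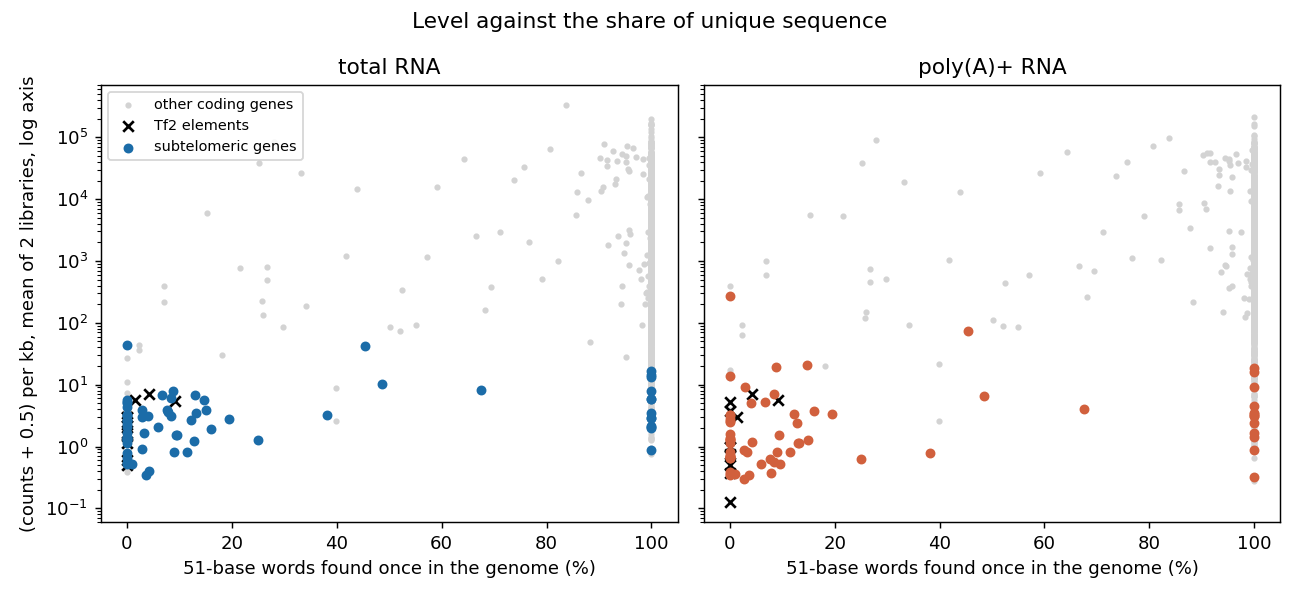
Counts plus 0.5 per kb (y axis, log scale, mean of 2 libraries) against the percent of 51-base words found once in the genome (x axis) in total RNA (left) and poly(A)+ RNA (right). Grey points are other coding genes, crosses Tf2 elements and coloured points the 69 subtelomeric genes. Subtelomeric genes stay low over the whole x axis, also at 90% and above, where 13 of them stand below most of the other genes.

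Poly(A)+ RNA was compared with total RNA by edgeR's quasi-likelihood test with Benjamini-Hochberg adjustment over all tested features. Of 11234 features tested, 85.3% differed at an adjusted p under 0.05, with 49.7% higher and 35.5% lower in poly(A)+ RNA. Only 7 of the 69 subtelomeric genes had enough counts to be tested. Of these 7, SPAC212.12 was higher in poly(A)+ RNA and none was lower. The standard errors of the 7 log2 fold changes were 0.31 to 0.72. Normalised counts of SPAC212.12 were 0.885 and 0.448 CPM in total RNA and 1.75 and 3.52 CPM in poly(A)+ RNA (means 0.666 ± 0.309 and 2.64 ± 1.25, SD, n = 2), a log2 fold change of 1.98 ± 0.55 (SE, edgeR adjusted p = 0.0145). The fractions did not overlap. Relative to the median protein-coding gene, which itself stood at -0.93, the log2 fold change was 2.91. Without replicate 2 of total RNA the adjusted edgeR p of this gene was 0.0751, without replicate 2 of poly(A)+ RNA it was 0.0572, and DESeq2 gave 0.0613.

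The other 6 tested genes did not pass. The transcription factor gene SPBC1348.12 had a log2 fold change of -1.38 ± 0.72 (SE, edgeR adjusted p = 0.118) and *tlh2* of -1.09 ± 0.57 (edgeR adjusted p = 0.118). Without replicate 2 of poly(A)+ RNA both were lower, at -2.78 and -2.09, with edgeR adjusted p of 0.0165 and 0.0122. Among the unique genes, *gdt1* stood at -0.65 ± 0.62 and SPAC186.06 at -0.23 ± 0.67. Relative to the median protein-coding gene, SPBC1348.12 was at -0.44, *tlh2* at -0.16, *gdt1* at 0.28 and SPAC186.06 at 0.70. SPAC212.04c stood at 0.17 ± 0.31 and SPBCPT2R1.04c at 0.69 ± 0.47, and both were called higher, with edgeR adjusted p of 0.0167 and 0.0179, when the scaling factors came from protein-coding genes alone. With every feature of at least 1 count tested, 60 of the 69 entered, 1 was higher and 7 were lower in poly(A)+ RNA. Those 7 had at most 10 counts in a total RNA library and at most 2 in a poly(A)+ library. The share of all features called with this setting is not given here, so the 7 and 1 are not read as a direction.

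Genes for factors of telomere protection and subtelomeric silencing were themselves well represented. All 14 listed genes were tested, with 127 to 6687 counts in a library and a median relative level of -1.41 in total RNA over those on chromosomes I and II (from -2.71 to 1.01). Of the 14, 3 were higher in poly(A)+ RNA by edgeR and 10 were lower, where 49.7% of all tested features were higher and 35.5% lower, with a median log2 fold change of -1.18, or -0.25 when set against the median protein-coding gene. Those higher were *pot1*, *tpz1* and *poz1*, which encode telomere-binding or bridging proteins of shelterin, with log2 fold changes of 2.69 ± 0.14, 1.83 ± 0.13 and 0.79 ± 0.15 (SE). Among those lower were *clr4*, the histone H3 lysine methyltransferase gene, at -2.40 ± 0.13, and *swi6*, the heterochromatin protein gene, at -0.79 ± 0.20, which is 0.14 above the median protein-coding gene. For *swi6* the direction thus depends on the scaling. Also called lower, *rap1*, *taz1* and *chp2* stood at -0.13, -0.24 and -0.25 relative to the median protein-coding gene. The gene *sgo2*, whose product acts at subtelomeres inward of the heterochromatin, did not pass, at 0.042 ± 0.21, which is 0.97 above the median protein-coding gene.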

How the data were processed

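Total and poly(A)+ RNA-seq libraries of *S. pombe* were analysed from gene counts. The authors trimmed reads with Cutadapt 1.15 (total RNA) or fastp 0.23.1 (poly(A)+ RNA), aligned them with STAR 2.6.1d and deposited raw counts per feature from featureCounts (Subread 2.0.6), per the submitters' processing notes. The genome build and the options for strand, read pairs and multi-mapping reads are not given in the sources used here. Each table's header is 1 cell longer than its rows, so fields were taken by position.

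Of 12684 features, 12602 were found in RefSeq's ASM294v3 by identifier, 12594 with the same start and 12601 with the same end. Subtelomeric genes, lists and tests were chosen with earlier results of these data known. Levels are log2((count + 0.5) / length) relative to the median of the other coding genes of the chromosome in the same library, without a test over genes. The difference between fractions was tested by exact permutation over the 4 libraries. For the counts of all features, the fractions were tested in R 4.3.3 with edgeR 4.0.16 (TMM, filterByExpr, glmQLFit, glmQLFTest), at an adjusted p under 0.05, with DESeq2 1.42.0 as an alternative. SE values are the absolute fold change (log2) over the square root of F. The 51-base words, ranks and levels were computed in Python 3.11.15 with pandas 2.3.3, and exact tests with scipy 1.17.1. The edgeR fit and the computation of relative levels were tested on simulated data.

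The libraries held 25530272 to 30650533 counts, and Wilson intervals at 95% cover counting error only. Replicates are labelled biological, and nothing further is said of their cultures.

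Named genes were, for each end, the outermost gene, the 3 with the highest mean level and the genes on either side of the 50 kb limit, with *tlh1*, *tlh2* and genes called by edgeR with at least 100 counts over the libraries and no overlap between fractions. The rule also asked for genes whose proteins are at least 90% identical. Protein sequences were not used here, and shared DNA words and starts took their place. This choice, the naming of further unique and repeated genes, and the walk inward from each end to the first gene above a percentile were made after the values had been seen.

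Alternatives were a pseudocount of 1, a filter at a mean of 10 counts in both fractions, counts not divided by length, length counted over unique words only (at least 100), genes of at least 90% unique words, RefSeq protein-coding genes only, limits of 25 and 100 kb, genes without an opposite-strand overlap and each library left out. For edgeR they were DESeq2 size factors, library totals, TMM factors from protein-coding genes, no filter beyond 1 count, a mean of at least 50 counts and replicate number as a block.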

Additional observations from a re-analysis of the deposited data

Results flagged for a closer look

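Sequence that is held apart from the chromosomes in the deposited coordinates also carried signal. A separate sequence, named as a telomeric gap of chromosome II, holds 5 coding-type features, SPBC460.01c to SPBC460.05. They enter none of the comparisons above. Their counts were at least 185 in every library and reached 9259, in SPBC460.02c in total RNA. SPBC460.04c, the lowest, had 206 and 213 counts in total RNA versus 186 and 185 in poly(A)+ RNA, which is above the highest count of any subtelomeric gene of chromosomes I and II. The signal was above the 3 counts that a count of 0 allows. Where this sequence lies on the chromosome, and how far its features are from an end, was not determined. Their counts therefore say nothing on levels near the ends.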

How the results depend on the processing

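The level of the subtelomeric genes relative to their chromosome stayed below -3.8 on the log2 scale under every alternative run. For chromosome I in total and poly(A)+ RNA and chromosome II in total and poly(A)+ RNA, the values were -5.01, -3.83, -6.40 and -6.94 with the filter at a mean of 10 counts (4 and 2 genes left), -9.40, -10.00, -9.33 and -11.27 without division by length, -6.63, -7.04, -7.09 and -7.74 with unique words as length, -7.21, -7.58, -7.87 and -8.24 for unique genes, and -7.11, -6.91, -7.59 and -7.54 within 100 kb. They were -7.84, -7.91 and -8.63 with a pseudocount of 1 for chromosome I and for chromosome II in poly(A)+ RNA, -8.70, -8.98 and -9.92 likewise without opposite-strand overlaps, and -7.61 and -8.87 for chromosome I within 25 kb. The difference between fractions reversed to 1.18 with the filter on chromosome I, and to 0.19 and 0.051 on chromosomes I and II within 100 kb. The cause was not tested.

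Of 7 subtelomeric genes tested by edgeR, 1 was called higher and 0 were called lower, where 49.7% of all tested features were higher and 35.5% lower. This became 1 lower with DESeq2 size factors and 3 higher with library totals or protein-coding TMM factors, each with 7 tested. It became 0 higher with DESeq2, for unique genes and for those without an opposite-strand overlap. With no filter, 60 genes were tested and 7 were lower, each with at most 10 counts in any library. With a library left out, 10 to 13 were tested. The share of all features called is not given for these alternatives, so the counts are not read as a direction. Leaving out each library gave 0 to 1 higher (0 without replicate 2 of either fraction) and 0 to 3 lower (3 without replicate 2 and 1 without replicate 1 of poly(A)+ RNA), and a fraction left with 1 library is assumed to vary like the other. With replicate number as a block it was 1 higher and 0 lower, and the block changed no other call. The labels do not say that a number marks a shared culture. Deviations of replicate 1 were uncorrelated between fractions (r = -0.0175 over 11234 genes). With 2 libraries per fraction, made in different ways, this cannot decide whether the numbers pair the libraries. The main test took the libraries as unpaired.

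Directions of genes that did not pass turned for SPAC212.04c (-0.33 with DESeq2 size factors and with DESeq2), *gdt1* (0.070 with library totals, 0.32 with protein-coding TMM factors) and SPAC186.06 (0.53 and 0.73 likewise, and from -0.23 to between -1.15 and 0.40 when a library was left out). The median protein-coding gene moved from -1.43 to 0.043 across scalings. Counts under 10 in 55 of 69 genes limit what can be compared.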

Other observations

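Within the same 50 kb stretches, 100 non-coding features gave 137 and 183 counts in total RNA versus 200 and 410 in poly(A)+ RNA in all, and 63, 62, 71 and 69 of them had no counts. The most counts in poly(A)+ RNA came from SPNCRNA.1701, which overlaps SPAC212.12, and from SPNCRNA.4503 (1 and 2 counts in total RNA, 19 and 71 in poly(A)+ RNA) near the methyltransferase gene SPAC750.03c. SPNCRNA.6659, at the right end of chromosome II, was at 0 in total RNA, with 18 and 20 in poly(A)+ RNA.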
